A study of Mus musculus with 2 samples.

Results

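The tripartite motif (TRIM) genes were examined in 2 RNA libraries from mouse marrow macrophages cultured with RANKL, 1 labelled control and 1 labelled MMP9 knockout. Members were all genes of the deposited table whose symbol is Trim followed by a number and, in some, a letter, whatever their level. There were 67 such genes among 26037. Of these, 36 had 40 or more reads in either library and are described with their values, 16 had between 1 read and the minimum, and 15 had no read in either library. Both cultures came from C57BL/6 marrow of mice aged 6 to 8 weeks. The cells were grown with M-CSF at 5 and then 30 ng/ml, and those that adhered were given RANKL for 3 days. Control cells carried the genotype label control, the others MMP9 KO, and the column headings add the letters NCsh and sh, which the labels do not explain. How Mmp9 was removed (deletion or silencing) is not stated. Each group was a single library (n = 1), which permits no test between genotypes, and the differences describe these 2 libraries without a replicate check.

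TRIM proteins are mostly RING-type ubiquitin ligases built from a RING finger, B-boxes and a coiled coil, followed by a C-terminal domain that differs between members and picks the target. A large group ends in a PRY-SPRY domain and includes restriction factors and regulators of antiviral sensing, many of them interferon-induced in macrophages. Others act in the nucleus as corepressors, at microtubules or in striated muscle. RANKL drives macrophages to become bone-resorbing osteoclasts, in which the metalloproteinase MMP9 is abundant.

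Levels are normalised read counts, that is, reads times 1 factor per library, with no division by gene length. The control held 20678441 reads and the knockout 17741432. Mmp9, the targeted gene, had a control level of 139 and a knockout level of 3.87. All 10 osteoclast markers, Mmp9 among them, were at least 2-fold lower in the knockout, with a summed level of 6824 in the control and 395 in the knockout, so the labelled cell type was far less visible in that library. Of 8 macrophage markers 5 were higher and 1 lower, with sums of 1008 and 1362. Markers of neutrophils, B cells, T and NK cells, stroma and erythroid cells each summed to at most 0.43 in either library, and dendritic cell markers to 4.94 and 1.76. In bulk RNA fewer cells of a type and less RNA per cell cannot be told apart, and the part of the changed osteoclast and macrophage markers in the TRIM values was not tested.

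A gene was called higher or lower when log2 of (knockout + 1) over (control + 1) reached 2-fold. On that scale a gene with fewer than 40 reads in both libraries cannot reach 2-fold, so the calls cover all 67 members. Promoter stretches introduce the result, because 7 of the 8 members that were higher lie in 1 cluster on chromosome 7 and most of their promoters hold one element. The interferon response element was searched as GAAA, any 2 bases and GAAA again on both strands, in the RefSeq promoter windows of GRCm38.p6 that run from 250 bases before to 50 bases after each start. The 30-base stretches below are written in the gene's direction, where the element reads TTTC, 2 bases and TTTC, and capitals mark it.
Trim30a, minus strand, chr7:104465210-104465239: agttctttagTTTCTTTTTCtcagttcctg
Trim30a, second start, minus strand, chr7:104446104-104446133: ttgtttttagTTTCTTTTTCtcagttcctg
Trim30d, minus strand, chr7:104507871-104507900: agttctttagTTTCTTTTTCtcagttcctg
Trim5, minus strand, chr7:104288136-104288165: agagttgtggTTTCTGTTTCatttccagag
Trim12a, minus strand, chr7:104315466-104315495: agagttgtggTTTCTGTTTCatttccagag
Trim12c, minus strand, chr7:104353359-104353388: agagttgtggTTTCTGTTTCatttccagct
Trim34a, plus strand, chr7:104244457-104244486: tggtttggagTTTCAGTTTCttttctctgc

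Of the 8 higher members 6 (75.0%) had the element in at least 1 promoter window, against 2 of 18 members within 2-fold (11.1%) and 1 of 25 members under the read minimum (4.0%) that have an entry in the promoter table. Over all 27025 genes of that table the share was 3.99%, and over the 317 higher genes with an entry it was 16.1%. The windows are related by descent and are not independent: those of Trim30a and Trim30d were identical at 93.6% of 295 aligned bases, those of Trim5 and Trim12c at 93.9% of 280, and Trim12a matched Trim5 at each of 241 aligned bases. The element began 36 bases before the start of Trim30a, 41 before Trim30d, 49 before Trim5 and 29 before Trim12c, and at base 11 counted from the start in Trim12a and in Trim34a. Trim34b and Trim46 had no match in their windows. Among the members within 2-fold, Trim21 and Trim26 each had 2 overlapping matches. A match describes letters in a window and shows neither binding nor use. The STAT element, searched as TTCNNNGAA, was found in 1 of the 8 higher members (Trim46, 12.5%), against 9.55% of all genes of the table.

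The 250 bases before the start of the 2 members with the highest ratio and of Trim54 are shown for context; Trim54 had the lowest ratio among members with a promoter entry and no interferon response element.
Trim30a, minus strand, chr7:104465194-104465443: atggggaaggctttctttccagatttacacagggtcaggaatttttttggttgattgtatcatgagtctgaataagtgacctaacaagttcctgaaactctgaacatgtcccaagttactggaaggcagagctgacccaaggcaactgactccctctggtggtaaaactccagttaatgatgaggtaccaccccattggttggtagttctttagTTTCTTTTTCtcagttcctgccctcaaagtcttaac
Trim30d, minus strand, chr7:104507850-104508099: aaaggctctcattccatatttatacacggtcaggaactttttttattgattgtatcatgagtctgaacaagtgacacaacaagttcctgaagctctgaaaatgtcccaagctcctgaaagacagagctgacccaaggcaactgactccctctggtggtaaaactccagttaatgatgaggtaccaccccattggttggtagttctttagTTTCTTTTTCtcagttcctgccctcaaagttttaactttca
Trim54, plus strand, chr5:31116362-31116611: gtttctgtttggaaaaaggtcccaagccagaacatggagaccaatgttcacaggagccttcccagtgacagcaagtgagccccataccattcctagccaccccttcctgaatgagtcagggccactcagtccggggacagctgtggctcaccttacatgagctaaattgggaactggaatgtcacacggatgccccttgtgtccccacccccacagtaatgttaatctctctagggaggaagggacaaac

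Of the 36 compared members 8 were higher in the knockout (22.2%), 3 were lower (8.33%) and 25 were within 2-fold. Among all 11415 genes with 40 or more reads in either library 4.11% were higher and 9.58% were lower. The share of lower TRIM members was thus close to the background, whereas the share of higher members was above it, with 7 of the 8 being paralogs from 1 cluster. Of the higher members 5 (Trim12a, Trim30d, Trim34a, Trim34b and Trim46) reached the read minimum only in the knockout, and Trim54 reached it only in the control. The median log2 ratio of the 36 was 0.21, beside -0.16 for all compared genes, and 21 ratios were above 0 and 15 below. Scaling the knockout to a median ratio of 0, by a trimmed mean or to equal sums shifted the median of all genes by 0.16, 0.17 and 0.26. Under these scalings 42.1%, 42.6% and 49.9% of the called genes of the table were higher, against 30.03% as deposited and 45.6% after centring in bins of GC content. The TRIM calls were the same 8 and 3 genes under each of the 3 scalings. All 3 scalings raise the knockout values, so none of the 8 higher members could lose its call. The 3 lower members could have lost theirs. The plot of TRIM levels shows both libraries for each compared member.

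**Figure D1:**
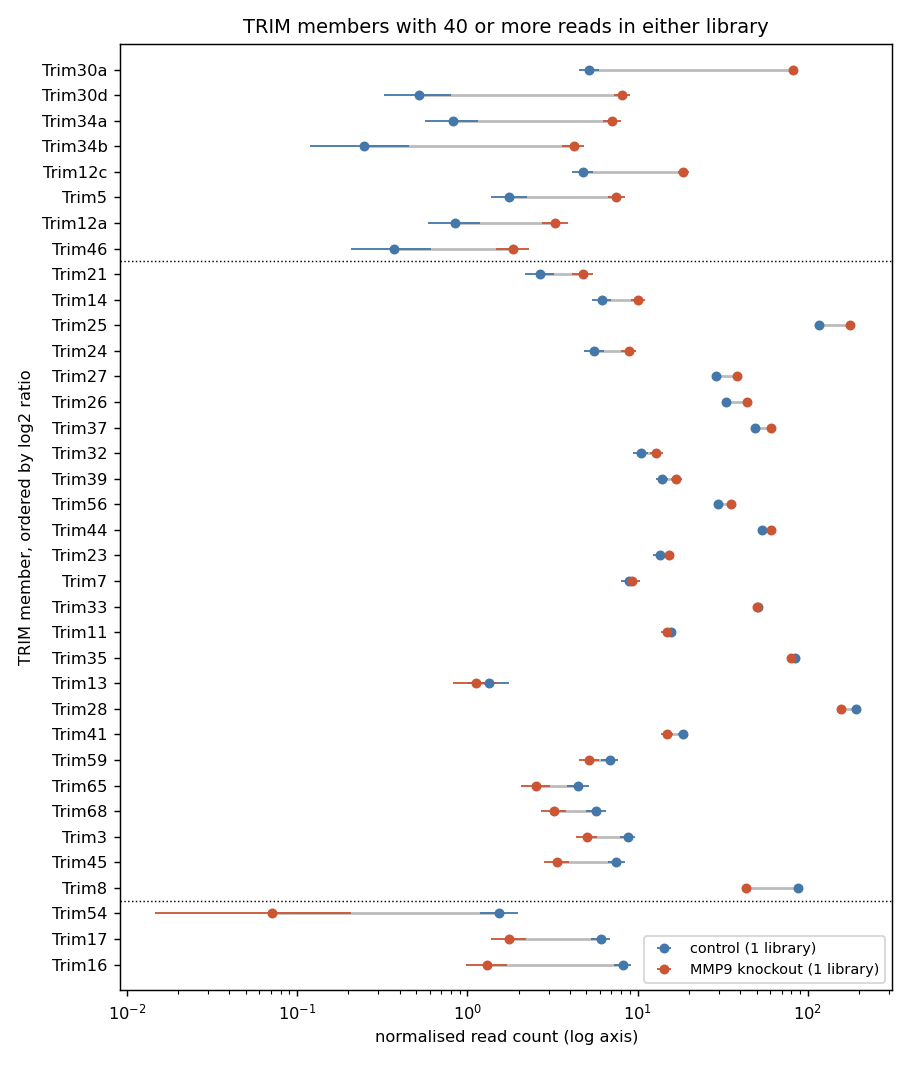
Normalised read count (log axis) of the 36 TRIM members with 40 or more reads in either library, ordered by log2 ratio, with 95% Poisson intervals for counting error. Blue points are the control and red points the MMP9 knockout, 1 library each; dotted lines part the 8 higher members at the top and the 3 lower ones at the bottom from the 25 within 2-fold.

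Trim30a, a PRY-SPRY ligase known as a brake on Toll-like receptor signalling in mouse macrophages, had the highest ratio of the family. The control had a level of 5.19 (209 reads) and the knockout one of 81.5 (3430 reads), which is 15.7-fold higher (95% interval 13.6 to 18.1, counting error only, as for all intervals here). Its log2 ratio of 3.74 was the 29th highest of the 11415 compared genes. Per kilobase of its longest transcript its level was 1.38 in the control, 24th of the 36 members, and 21.6 in the knockout, 4th of 36. The neighbouring paralog Trim30d was 0.522 (21 control reads) and 8.05 (339 knockout reads), 15.4-fold higher (9.93 to 25.3). Of the 50-base words of the longest Trim30a transcript 6.53%, and of those of Trim30d 8.29%, also occur in transcripts of other genes. Only exact matches were counted and the counting program is not named, so how far reads of these paralogs separate was not tested.

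Trim5, Trim12a and Trim12c are the mouse relatives of primate TRIM5, a restriction factor that recognises retroviral capsids. Trim12c had control and knockout levels of 4.77 (192 reads) and 18.6 (781 reads), 3.89-fold higher (3.32 to 4.58). Trim5 was 1.76 (71 reads) and 7.51 (316 reads), 4.25-fold higher (3.28 to 5.59). Trim12a was 0.845 (34 reads) and 3.28 (138 reads), 3.88-fold higher (2.65 to 5.83). The 3 folds lay within each other's intervals. Of the 50-base words of the Trim5 transcript 38.1%, and of those of Trim12c 32.7%, also occur in other genes, chiefly in each other, so the split of reads between them is uncertain. Their sum does not depend on a split among the 3 and was 7.38 and 29.3, 3.98-fold higher (3.50 to 4.53).

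The paired genes Trim34a and Trim34b encode close relatives of the same group. Control and knockout levels of Trim34a were 0.820 (33 reads) and 7.08 (298 reads), 8.63-fold higher (6.01 to 12.8). Exons of Gm47248 on the opposite strand, a gene without a value here, cover 23.5% of the exonic bases of Trim34a. Trim34b was 0.248 (10 reads) and 4.20 (177 reads), 16.9-fold higher (8.99 to 35.9). These transcripts share 41.3% and 59.0% of their 50-base words with each other, so the separate values are uncertain. The sum of the pair was 1.07 and 11.3, 10.6-fold higher (7.72 to 14.8).

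The 7 genes lie within one cluster of 10 TRIM members on chromosome 7, from 104218793 to 104507849 in GRCm38 (GENCODE M21), a build other than the mm9 the authors aligned to. The order is Trim6, Trim34a, Trim5, Trim12a, Trim34b, Trim12c, Trim30b, Trim30c, Trim30a and Trim30d. The other 3 members had few reads. Trim6 had 22 reads in the control and 25 in the knockout (levels of 0.547 and 0.594), and its interval of 0.588 to 2.02-fold includes 1. Trim30c had 7 and 27 reads, 3.69-fold higher (1.57 to 10.0), and Trim30b had 0 and 10, at least 3.19-fold higher when 3 reads are taken as the limit of a count of 0. Trim30e-ps1, a pseudogene beside the cluster that is not a member by symbol, had 0 and 23 reads. The cluster as a whole held 599 control reads and 5541 knockout reads, and its summed level was 8.84-fold higher (8.13 to 9.64), and 5.17-fold (4.64 to 5.78) without Trim30a. The only other gene of the table inside the span, Gm15133, had no read, nor had the olfactory receptor genes of the table on either side within 200 kb. Outside the cluster 1 of 29 compared members was higher (3.45%) and 3 were lower (10.3%), near the 4.11% and 9.58% of all compared genes. The transcripts of the cluster are poor in GC, with a median of 40.8% over the 7 against 49.6% over all compared genes. Genes of like GC content had median log2 ratios between -0.08 and 0.08, and after subtraction the 7 ratios lay between 1.14 (Trim12a) and 3.65 (Trim30a), so each of the 7 stayed past 2-fold.

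**Figure D2:**
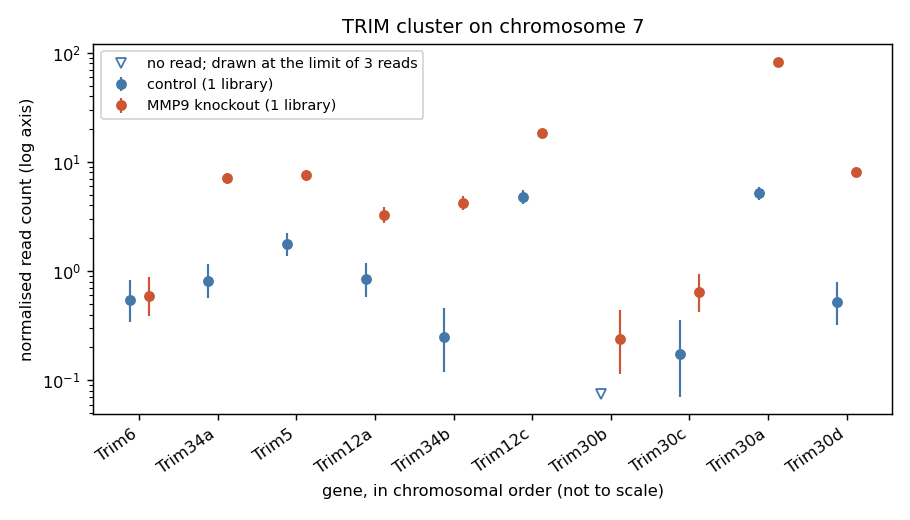
Normalised read count (log axis) of the 10 TRIM members of the chromosome 7 cluster in chromosomal order, with 95% Poisson intervals; blue is the control, red the MMP9 knockout, 1 library each, and the open triangle marks no read, drawn at the level of 3 reads. Trim6 is level between the libraries (22 and 25 reads), while the intervals of the 2 libraries are apart for Trim34a, Trim5, Trim12a, Trim34b, Trim12c, Trim30c, Trim30a and Trim30d.

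Trim46, the only higher member outside the cluster, belongs to the class with a COS box, which binds microtubules, and is known from the axon initial segment of neurons. Its levels were 0.373 (15 reads) and 1.85 (78 reads), 4.97-fold higher (2.84 to 9.30). Exons of Krtcap2 on the opposite strand cover 6.30% of its exonic bases, and that gene had 1460 and 1653 reads. Since the use of strand is not stated, reads from that overlap cannot be told apart.

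The 3 lower members were grouped in different classes, though Trim16 was classed by its lack of a RING and not by C-terminal domain. Trim16, which lacks a RING and acts in the clearance of damaged lysosomes, had the lowest ratio, with a control level of 8.15 (328 reads) and a knockout level of 1.31 (55 reads), 6.24-fold lower (4.68 to 8.46). Trim54, a muscle ligase that associates with microtubules and the sarcomere, was 1.54 (62 reads) and 0.0713 (3 reads), 21.6-fold lower (7.06 to 108). Exons of Gm15469 on the opposite strand, a gene without a value here, cover 26.6% of the exonic bases of Trim54. The skeletal muscle markers Myh1 and Myh4 had no read in either library, Ckm had 0 and 6 reads and Des had 1 and 0. The titin gene Ttn had levels of 3.70 (149 reads) and 2.02 (85 reads). The actin gene Acta1 had levels of 111 (4480 reads) and 54.2 (2281 reads). These 6 striated muscle markers summed to 115 and 56.3, most of it Acta1, and their part in the lower Trim54 value was not tested. The transcript of Trim54 is rich in GC (59.9%), and genes of like GC content had a median ratio of -0.56. Centred on them its log2 ratio, already reduced by the pseudocount at this low level, was -0.69, which is within 2-fold on that scale. Trim17, a ligase studied in neuronal death, was 6.09 (245 reads) and 1.76 (74 reads), 3.46-fold lower (2.66 to 4.55). On the same strand, exons of the histone gene Hist3h2a cover 19.0% of the exonic bases of Trim17. Hist3h2a had 253 and 81 reads, near those of Trim17 in both libraries. The lower Trim17 value can therefore not be told apart from that of Hist3h2a.

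Trim8 and Trim45 lay just inside the threshold. Trim8, a ligase that promotes NF-kB signalling downstream of TNF and interleukin 1, had levels of 87.1 and 43.2, 2.02-fold lower (1.91 to 2.14), at a log2 ratio of -0.996. Trim45 was 7.50 and 3.35, 2.24-fold lower (1.83 to 2.76), at -0.97. After centring by GC content their ratios were -0.44 and -0.66.

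**Figure D3:**
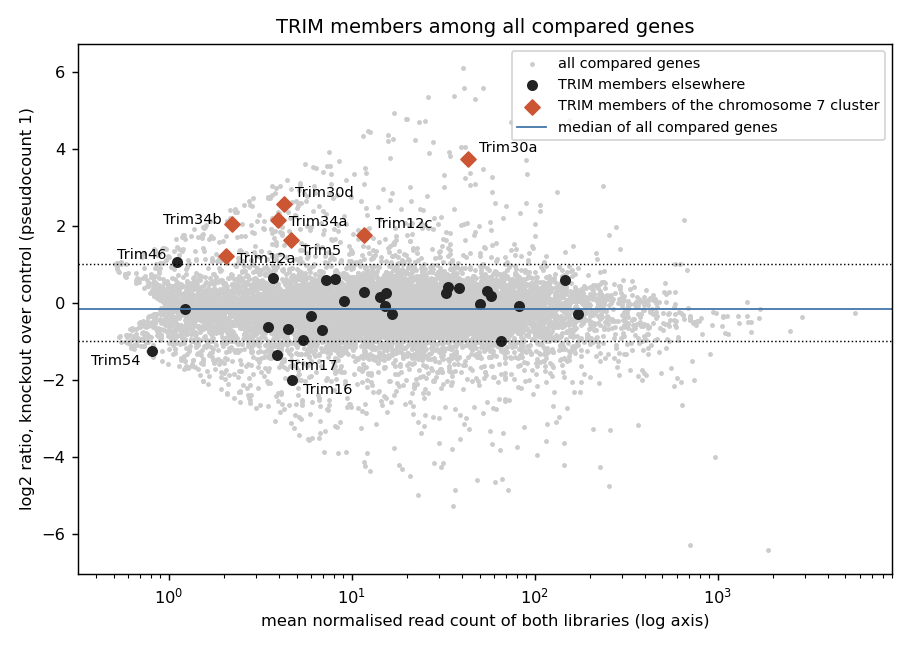
Log2 ratio of knockout over control with a pseudocount of 1 against the mean normalised read count (log axis) for 11415 compared genes in grey, with TRIM members of the chromosome 7 cluster as red diamonds and the other TRIM members in black. Dotted lines mark 2-fold and the blue line the median of all compared genes (-0.16); the 7 red diamonds lie above the upper dotted line, from 1.21 (Trim12a) to 3.74 (Trim30a).

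Of the 15 TRIM genes in a list of interferon-induced members 12 were compared, 7 were higher (58.3%, against 4.11% of all compared genes) and 0 were lower (against 9.58%). All 7 are genes of the chromosome 7 cluster. The other 5 had smaller differences in the same direction. Trim21, a cytosolic receptor for antibody-coated virus, was 2.66 and 4.75, 1.79-fold higher (1.41 to 2.28). Trim14, an adaptor of mitochondrial antiviral signalling, was 6.16 and 10.05, 1.63-fold higher (1.39 to 1.91), but 31.3% of its exonic bases are covered by exons of Nans on the opposite strand. Trim25, the ligase that ubiquitinates the RNA sensor RIG-I, was 116 and 177, 1.52-fold higher (1.46 to 1.57). Trim26 was 33.2 and 43.6, and Trim56 was 29.8 and 35.5. Trim30b and Trim30c were under the read minimum. Trim38 was listed with no read in either library, which allows control and knockout levels of up to 0.0745 and 0.0713. All 12 ratios were above 0 as deposited and after centring by GC content. The 3 scalings raise the knockout values, so they could not turn these ratios negative. The list holds only Trim symbols and was chosen with earlier results of these data known. Pml and Mid1, family members under other symbols, were not in it and had log2 ratios of -0.56 and -0.21. Of the 24 compared members outside the list 1 was higher (4.17%, beside 4.11% of all compared genes) and 3 were lower (12.5%, beside 9.58%). Their median was -0.11.

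Members were grouped by domain, but those without a RING, other than Trim66, were classed apart whatever their C-terminal domain. The PRY-SPRY class therefore leaves out Trim14 and Trim16, of which Trim16 was lower. Membership of the PRY-SPRY class, that of Trim12a included, came from general knowledge and was not checked against protein sequences. Within that class as listed, 7 of 19 compared members were higher (36.8%) and 1 was lower (5.26%), with a median of 0.40. The values for all compared genes were 4.11%, 9.58% and -0.16. The 7 are those of the cluster, and the other 11 within 2-fold ranged from -0.67 (Trim68) to 0.65 (Trim21). None of the 3 PHD-bromodomain members was past 2-fold. Trim28, the corepressor recruited by KRAB zinc finger proteins to silence retroelements, had the highest level per kilobase in both libraries, 58.8 in the control and 48.2 in the knockout. Its normalised read counts were 191 and 157, and its log2 ratio of -0.28 turned to 0.0015 with equal sums. Trim33, which acts on SMAD signalling, was 50.6 and 49.98, at -0.02 as deposited and 0.26 with equal sums. Trim24, a nuclear receptor cofactor, was 5.54 and 8.88, 1.60-fold higher (1.35 to 1.90). The NHL members were Trim3, an endosome-associated ligase at 8.75 and 5.01, and Trim32, a ligase mutated in a limb-girdle muscular dystrophy, at 10.4 and 12.9. Trim37, a MATH-domain ligase tied to centriole number, was 48.6 and 60.6, and Trim23, which carries an ARF GTPase domain, was 13.5 and 15.2.

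**Figure D4:**
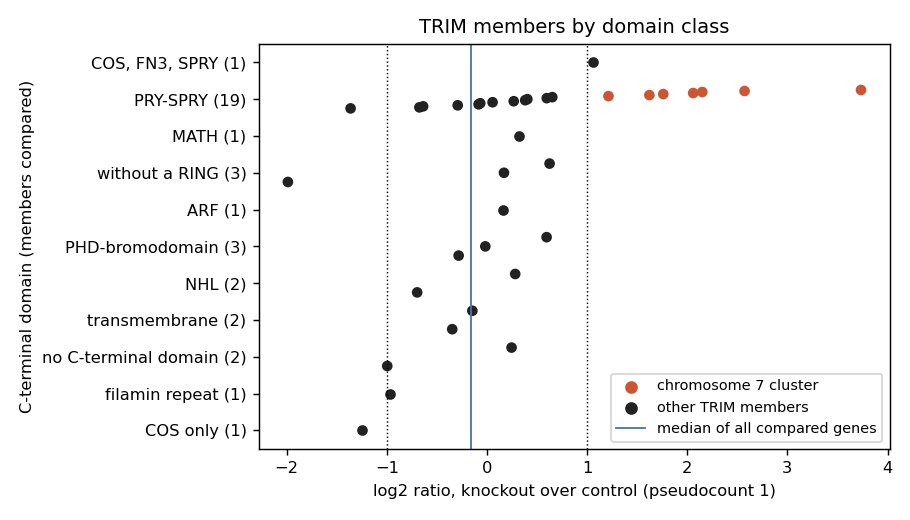
Log2 ratio of knockout over control (pseudocount 1) of the 36 compared TRIM members by domain class, with the number compared in parentheses. Compared members without a RING form their own class whatever their C-terminal domain. Red points belong to the chromosome 7 cluster and dotted lines mark 2-fold. The 7 ratios above 1 among the 19 members listed as PRY-SPRY are all red.

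Among the remaining members within 2-fold, Trim35 was the 3rd highest per kilobase in both libraries, at 22.96 and 21.6, where Trim30a in the knockout reached the same level. Trim25 moved from 4th to 2nd of the 36 per kilobase (20.8 and 31.6) and Trim8 from 2nd to 5th (24.3 and 12.1). Trim65, a ligase for the RNA sensor MDA5, was 4.47 and 2.52, 1.78-fold lower (1.39 to 2.28), and its neighbour Trim47 had 25 and 18 reads. Trim68 was 5.71 and 3.21, 1.78-fold lower (1.43 to 2.22). Trim44 was 53.97 and 60.8, Trim27 28.8 and 38.4, Trim39 13.9 and 16.9, and Trim41 18.5 and 14.9. On the opposite strand, exons of Rack1 (36721 and 25932 reads) cover 0.88% of the exonic bases of Trim41 (743 and 627 reads). Those of Gm12184 (2688 and 3095 reads) cover 1.84% of the exonic bases of Trim7 (358 and 391 reads). Since the use of strand is not stated, reads from these overlaps cannot be told apart. Trim59 was 6.86 and 5.18. For Trim7 (8.90 and 9.29), Trim11 (15.6 and 14.9), Trim13 (1.34 and 1.12) and Trim33 the counting interval of the fold included 1. The signs of Trim11, Trim13, Trim28, Trim33 and Trim35, all below 0 as deposited, turned positive with equal sums.

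Members with reads below the minimum were Trim2, Trim6, Trim15, Trim30b, Trim30c, Trim36, Trim43a, Trim43b, Trim47, Trim50, Trim62, Trim63, Trim66, Trim67, Trim69 and Trim75. Those without a read were Trim9, Trim10, Trim29, Trim31, Trim38, Trim40, Trim42, Trim43c, Trim52, Trim55, Trim58, Trim60, Trim61, Trim71 and Trim72. Among these are the muscle gene Trim55 and the developmental NHL gene Trim71; the muscle gene Trim63 had 1 read in the control.

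Of 6 family members under other symbols 2 were compared, and both were within 2-fold. Mid2, Mefv, Triml1 and Triml2 were under the read minimum and could not reach it. Pml, the scaffold of nuclear bodies, was 45.3 and 30.4, and Mid1, a microtubule-bound ligase, was 5.84 and 4.89. Genes of the pathways in which TRIM ligases work were taken from lists, to be read against the 4.11% of all compared genes that were higher and the 9.58% that were lower. Of 13 RNA and DNA sensing genes 4 were higher and 1 lower: the RIG-I gene Ddx58 (4.60 and 144), the MDA5 gene Ifih1 (1.34 and 30.9), Irf7 (1.34 and 43.3) and the kinase gene Ikbke (1.29 and 11.1) were higher, and the adaptor gene Traf6 (50.4 and 19.2) was lower. Among interferon signalling genes, Stat2 (8.10 and 24.2) and Irf9 (7.58 and 33.7), which encode transcription factor subunits, were higher. The receptor genes Ifnar1 (34.3 and 21.6) and Ifnar2 (33.4 and 30.5), the kinase genes Jak1 (110 and 102) and Tyk2 (48.3 and 51.03) and the transcription factor gene Irf1 (6.58 and 6.65) were within 2-fold, and the interferon gene Ifnb1 had no read in either library. Of 14 ubiquitin and ISG15 conjugation genes 4 were higher and 0 lower, namely Isg15 (0.547 and 31.0), its protease gene Usp18 (1.17 and 103), the E1 gene Uba7 (9.74 and 31.7) and Herc6 (2.39 and 11.7). Ube2l6, the E2 enzyme gene of ISG15, was within 2-fold at 14.4 and 10.0, in the other direction. The E2 enzyme genes Ube2d1 (10.2 and 10.9) and Ube2d2 (41.6 and 33.5), which serve many RING ligases, were within 2-fold. Of 10 silencing partners of Trim28, such as Setdb1 (103 and 89.4) and Cbx1 (17.3 and 20.8), and of 5 SMAD pathway genes, such as Smad2 (26.7 and 25.4) and Smad3 (4.08 and 6.94), 0 were past 2-fold.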

How the data were processed

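RNA-seq libraries of 1 control and 1 MMP9 knockout culture were analysed. Libraries were made from polyA+ RNA for an Illumina sequencer, per the labels' protocols. Reads were aligned with TopHat to mm9, per the submitters' processing notes. No source used here names the counting program, annotation, strand use or normalisation. The authors deposited log2 values titled normalised RPKM. Converted from log2, 99.99% of values in each library lay within 0.05 of a whole multiple of 1 step, equal for genes of any length (0.0248 in the control, 0.0238 in the knockout), so they were treated as reads times 1 factor. A gene without a read carried 0.9 of the step and was set to 0.

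Ratios are log2 of (knockout + 1) over (control + 1), which understates differences of low genes. Printed folds use no pseudocount, with exact 95% conditional binomial (Clopper-Pearson) intervals from reads. Intervals and the limit of 3 reads for a count of 0 cover counting error only, and without molecular identifiers reads may repeat a molecule. The interval method was tested on simulated data. Named were all members with 40 or more reads in either library. Domain classes, interferon, pathway and marker lists came from general knowledge, and members and lists were chosen with earlier results of these data known. Domain classes were not checked against protein sequences. The chromosome 7 cluster (members less than 200 kb apart) was singled out after its values were seen. One pathway symbol, and older names of 3 TRIM genes, had no row. One gene of the pathway lists is not reported here. GENCODE M21 (GRCm38), matched by Ensembl identifier for all 67 members, gave positions, overlaps, and length and GC content of the longest transcript. RefSeq promoters matched 52 members. Python 3.11.15, numpy 2.4.6, scipy 1.17.1 and pandas 2.3.3 were used.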

Additional observations from a re-analysis of the deposited data

How the results depend on the processing

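No paired analysis was possible because each group is a single library, and leaving out a library would leave no comparison. The 8 higher members numbered 4 with a pseudocount of 5 (Trim12c, Trim30a, Trim30d and Trim34a) and 5 with 200 or more reads required, and 8 under the other 8 alternatives. Among the latter, the 3 scalings raise the knockout values and could not lower this count. The 3 lower members numbered 5 with a pseudocount of 0.1, which added Trim8 and Trim45, 1 with a pseudocount of 5 (Trim16), and 2 or 3 otherwise. The 7 higher members of the chromosome 7 cluster numbered 4 with a pseudocount of 5 and 5 with 200 or more reads required. These counts moved by construction, since a larger pseudocount shrinks low genes and a stricter minimum tests fewer. The median log2 ratio of 0.21 was 0.059 without a filter, where members near 0 enter, 0.39 with the median of all genes at 0, 0.39 with a trimmed mean and 0.49 with equal sums, since each of these scalings raises the knockout values. For the 36 named members, 123 alternative values stayed inside the member's counting interval and 93 did not. No called member, of 11, changed sign. A pseudocount cannot change a sign, and the 3 scalings could not turn a higher member negative. At 10 to 40 reads, as for Trim34b, Trim46 and Trim30d in the control, counting error alone spans several-fold.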
